A study of Artemia franciscana with 14 samples.

Results

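The 236 genes described here were read, by their stage averages, at both sampled embryo stages of the brine shrimp Artemia franciscana but left no read in either adult library. Not every embryo held each of them: 201 had a read in all 12 embryos. They were selected on their read counts, from a table of 19421 genes. A gene was a member when its mean level was at least 20 CPM (the count divided by the library's total count, times 1000000) both at 4 days post fertilization (4 dpf) and at 1–2 dpf, when both adults had 0 reads, and when the CPM ranges of the 2 stages overlapped, so that neither stage lay wholly above the other. Gene numbers jg8898 to jg9983, where the Z chromosome lies, were left out. The level at both stages, the overlap and the absence from adults therefore chose the members, and those values are given below as descriptions with no test.

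All animals were wild-type, from a population that is not isogenic, and adults were kept in water with 60 g/L of sea salt. The 12 embryo libraries came from whole single embryos that developed ovoviviparously, that is, inside the mother's brood pouch without forming a dormant cyst: 3 females and 3 males at 4 dpf, and 3 females and 3 males at 1–2 dpf. Of the 1–2 dpf embryos, 2 (female replicate 3, male replicate 1) were of 1 dpf and 4 of 2 dpf. The 2 remaining libraries came from 1 adult female and 1 adult male, dissected so that the germline was removed. Embryo sex was assigned by the authors from expressed variants on the Z chromosome, and which embryos shared a mother is not given in the sources used here.

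Brine shrimp females are ZW and males ZZ. At 1–2 dpf the embryo is a blastula, by 4 dpf it has passed gastrulation, and it hatches later as a free-swimming nauplius larva. In many animals a set of transcripts is loaded into the egg or switched on in the embryo and is later shut off, so that a gene used while the body is laid out need not be used by adult tissues. In RNA from whole embryos and dissected adults, fewer cells that use a gene and less RNA per cell cannot be told apart. The gene identifiers (jg numbers) carry no symbol in the counts, and none of them was matched in the RefSeq gene table, so the members are given by identifier, with a role only where the study names the gene.

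Of 3856 genes with a mean of at least 20 CPM at both stages, 3525 had overlapping stage ranges and 3286 of those lay outside the left-out numbers. The 236 members made up 7.18% of these 3286 genes. The other 3050 genes had adult reads and are the comparison set below. Among the 3286 genes, 2382 had reads in both adults, 328 were at 0 in the female only and 340 in the male only. Of the 3050 genes with adult reads, 26 had 1 read over both adults, 79 had 2 to 10 and 2945 had more than 10. A further 42 genes met the level rule and had no adult read, but their stages did not overlap, and 18 lay inside the left-out numbers.

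Total counts ran between 2669131 and 7463397 in the 12 embryos, against 3342959 for the adult female and 1840926 for the male. Between 9481 and 11352 genes had a read in each of 11 embryos, and female replicate 12 at 1–2 dpf stood apart with 6414. The adults had reads of 7399 genes (female) and 7064 genes (male). Both adults held reads of the study's RT-qPCR reference genes: jg15373 had 2033 reads in the female and 567 in the male, and jg3163 had 1045 and 344. A count of 0 allows a level of up to 3 reads, which is 0.897 CPM for the adult female and 1.63 CPM for the male. These floors cover counting error only, because reads were not collapsed to molecules. The adult libraries were made from a small, set amount of total RNA, and molecules lost before sequencing are not covered.

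The median member averaged 39.7 CPM over the 12 embryos, against 66.3 CPM for the genes with adult reads. Set against the floor, the median member was at least 44.3-fold higher in embryos than in the adult female and at least 24.4-fold higher than in the adult male. These bounds hold for counting error only. Over all members the bounds ran between 23.4 and 6317 for the adult female and between 12.9 and 3479 for the adult male. With 1 library per adult sex there was no replicate check of these differences.

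The share of genes without adult reads was highest among the genes of lowest embryo level. Between 20 and 40 CPM, 119 of 883 genes (13.5%) were members, and between 40 and 80 CPM 73 of 1072 (6.81%) were. Between 80 and 160 CPM the share was 19 of 649 (2.93%), and at 160 CPM or more 25 of 682 (3.67%). Counting each adult by itself, 29.6% of the lowest class and 5.13% of the highest were at 0 in the female, and 31.0% and 5.43% in the male. These single-adult counts include the members themselves. In the lowest class, 119 of the 261 genes at 0 in the female, and of the 274 in the male, were members. In the highest class, members were 25 of the 35 in the female and of the 37 in the male. The single-adult shares are therefore no separate measure of how often a zero arose.

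**Figure D1:**
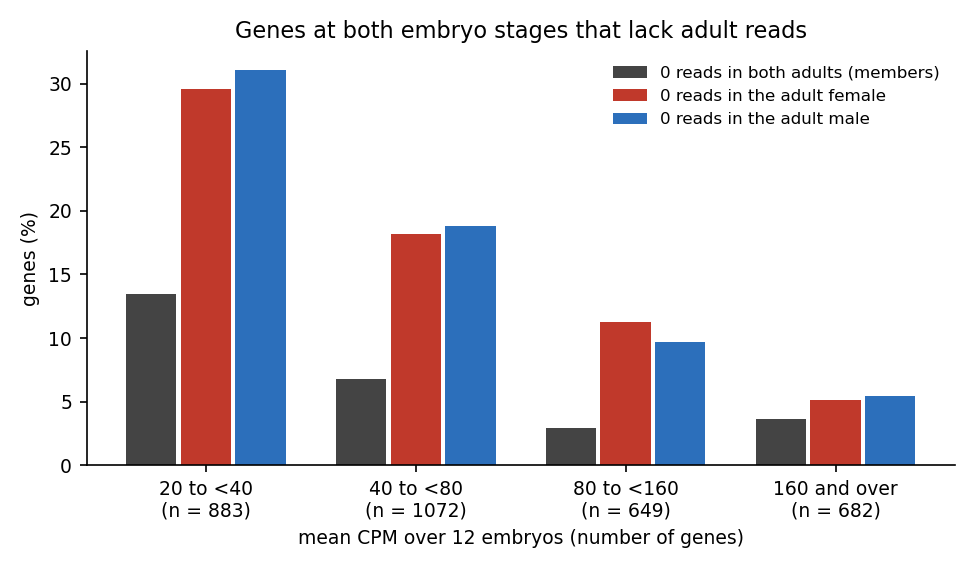
Percentage of the 3286 genes without reads in both adults (members, dark), in the female adult (red) and in the male adult (blue), by mean embryo CPM class; the number of genes per class is on the axis. Members were 13.5% of genes between 20 and 40 CPM and 3.67% at 160 CPM or more.

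The members made up a small share of embryo RNA. They took 2.73 to 3.18% of the reads of each 4 dpf embryo (median 2.83%), against 3.18 to 8.21% in the 1–2 dpf embryos (median 4.86%). The most abundant 2 members, jg14428 and jg22221, made up most of this difference. Without them the members took 2.68 to 3.18% of reads at 4 dpf and 2.56 to 3.60% at 1–2 dpf, ranges that overlapped.

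Only a few members were abundant, and the leading 2 were abundant in only part of the embryos. In jg14428, the member with the highest mean (5669 CPM), the 4 dpf embryos had 521, 7.32 and 39.8 CPM in females and 10.3, 409 and 560 CPM in males. At 1–2 dpf it had 1868, 326 and 591 CPM in females and 1683, 45440 and 16576 CPM in males. Its level was thus highest in the 2 male embryos of 2 dpf, and male replicate 2 alone held 66.8% of its summed CPM. These 2 embryos were not set apart by this gene alone. Over all genes, the count difference between them (chi-square per gene) was 53.1, against 146 to 175 with the 2 dpf females. It was 48.0 between the 2 dpf females and 29.8 between the 2 embryos of 1 dpf. Against the embryos of 1 dpf, the 2 dpf males were at 93.9 to 110 and the 2 dpf females at 79.1 to 139. At 2 dpf, sex cannot be told apart from a shared mother or exact age, which are not given.

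The next member, jg22221, had 41.7, 41.1 and 12.6 CPM in females and 10.6, 40.7 and 23.98 CPM in males at 4 dpf. At 1–2 dpf it had 22582, 7171 and 4197 CPM in females and 17839, 680 and 4.56 CPM in males. The low values were in the same 2 male embryos of 2 dpf in which jg14428 was high. The overlap of the stages, by which jg22221 is a member, rests on male replicate 3 alone, the only 1–2 dpf embryo below 41.7 CPM.

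Other abundant members were read at a high level in every embryo. In jg5499 the 6 embryos of 4 dpf had 1755 to 3745 CPM (median 3116), against 2280 to 7690 CPM at 1–2 dpf (median 6087). In jg1923 the 4 dpf embryos had 1610 to 6551 CPM (median 3145) and the 1–2 dpf embryos 1363 to 6273 CPM (median 4538). In jg6026 the ranges were 1843 to 3128 CPM (median 2712) at 4 dpf and 1708 to 6453 CPM (median 2962) at 1–2 dpf. Each of these 3 members reached more than 1000 CPM in all 12 embryos and had no read in the adults.

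For jg19098 the 4 dpf embryos had 2652 to 3986 CPM (median 3241), against 608 to 2907 CPM (median 1546) at 1–2 dpf. The ranges met only through male replicate 2 at 1–2 dpf (2907 CPM) and male replicate 2 at 4 dpf, and without either embryo they did not overlap. For jg12911 the 4 dpf embryos had 242 to 559 CPM (median 358), against 511 to 3374 CPM (median 931), the highest being male replicate 3 at 2 dpf. For jg3685 the direction was opposite, with 671 to 1782 CPM (median 1204) at 4 dpf and 228 to 761 CPM (median 373) at 1–2 dpf. Without male replicate 2 of 1–2 dpf the ranges of jg3685 did not overlap. The remaining members among the 10 most abundant were jg2337, with 415 to 755 CPM at 4 dpf and 336 to 742 CPM at 1–2 dpf, and jg10555, with 369 to 945 CPM and 141 to 410 CPM. The ranges of jg10555 did not overlap without male replicate 8 of 4 dpf.

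**Figure D2:**
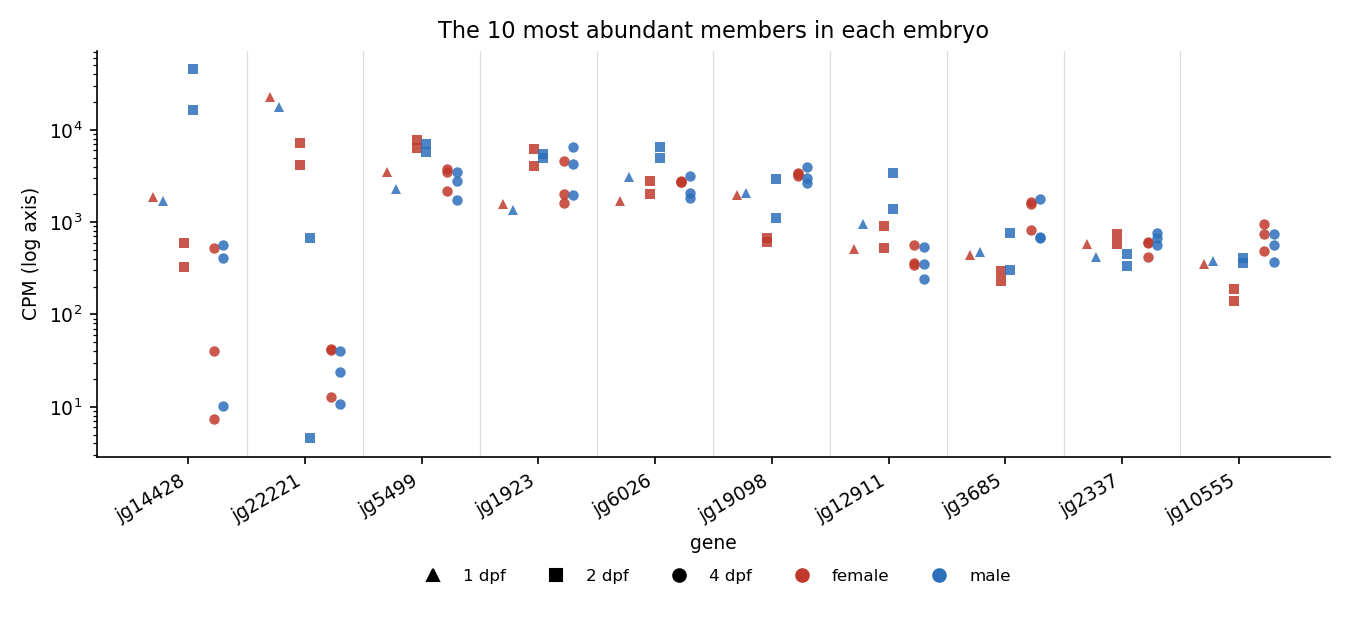
CPM (log axis) of the 10 most abundant members in each of the 12 embryos, by day (triangles 1 dpf, squares 2 dpf, circles 4 dpf) and sex (red females, blue males); each point is 1 embryo. The 2 male embryos of 2 dpf are highest for jg14428 (45440 and 16576 CPM) and lowest of the 1–2 dpf embryos for jg22221 (680 and 4.56 CPM), while jg5499, jg1923 and jg6026 exceed 1000 CPM in every embryo.

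At the other end of the rule, jg7853 averaged 20.1 CPM at 4 dpf and 40.5 CPM at 1–2 dpf, and jg18555 averaged 37.1 CPM and 20.2 CPM; both were just inside. Just outside were jg2133, with 19.9 CPM at 4 dpf and 29.3 CPM at 1–2 dpf, and jg8198, with 19.9 and 24.005 CPM. By the adult rule, jg5498 (4575 CPM over the 12 embryos) and jg5500 (1390 CPM) were just outside, each through 1 read in the adult female. The genes just inside and just outside the limits thus differed by under 1 CPM or by 1 adult read.

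Members were rarely missing from an embryo, which the level rule itself makes likely. In all 12 embryos, 201 of 236 members (85.2%) had a read, against 2826 of 3050 genes with adult reads (92.7%). Of the rest, 30 members were missing from 1 embryo, 3 from 2 embryos, jg16895 from 4 and jg5796 from 5. Most of these gaps were in female replicate 12 at 1–2 dpf, which lacked 30 members (12.7%) and 195 of the comparison genes (6.39%), while the other embryos lacked 0 to 3 members each. Without that embryo, 228 members (96.6%) and 3017 comparison genes (98.9%) had reads in all 11 others. The share with reads in all 12 embryos was also read by level class (from 20, 40, 80 and 160 CPM). It was 78.2, 93.2, 89.5 and 92.0% for members, against 84.6, 91.0, 98.3 and 99.2% for comparison genes. Fewer members stayed above the level of the rule in every embryo: 61 (25.8%) had at least 20 CPM in all 12, against 1716 (56.3%) of the genes with adult reads, whose levels were also higher.

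Members varied more from embryo to embryo than the comparison genes did, mainly at high levels. The median coefficient of variation (CV, the SD over the mean of the 12 CPM values) was 0.487 for members and 0.406 for the genes with adult reads, and 0.441 and 0.365 without female replicate 12. Between 20 and 40 CPM the medians were 0.489 and 0.474, and between 40 and 80 CPM 0.445 and 0.435. Between 80 and 160 CPM they were 0.519 for the 19 members and 0.364 for the other genes, and at 160 CPM or more 0.518 for the 25 members and 0.301. A CV of 1 or more was found in 14 members (5.93%) and 41 comparison genes (1.34%). Both sets met the same level and overlap rule, and these values are given with no test, because the rule used the same CPM.

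**Figure D3:**
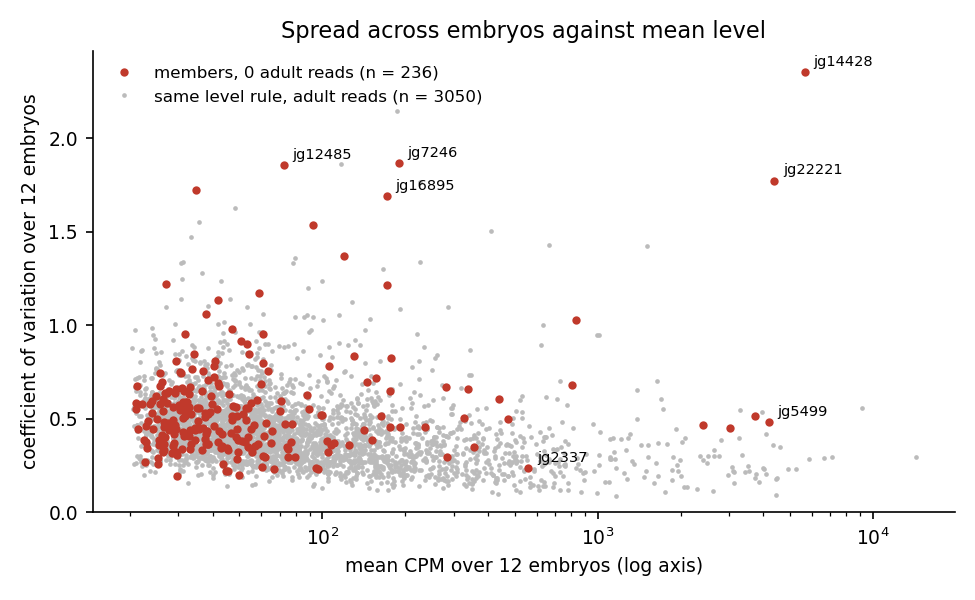
Coefficient of variation of CPM over the 12 embryos against mean CPM (log axis) for the 236 members (red) and the 3050 genes of the same level rule with adult reads (grey); each point is 1 gene. Members at 160 CPM or more had a median of 0.518, against 0.301 for the grey genes, and jg14428 had the highest value among members (2.36).

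The steadiest members stayed between 21.0 and 144 CPM. Among members with reads in all 12 embryos, jg14120 varied least (CV 0.194), with 26.1, 32.8 and 32.9 CPM in females and 22.4, 37.7 and 21.0 CPM in males at 4 dpf, against 26.7, 26.1 and 25.2 CPM in females and 36.0, 32.5 and 36.7 CPM in males at 1–2 dpf. Next were jg4451 (CV 0.201, 34.96 to 71.3 CPM), jg12231 (0.221, 30.4 to 60.3 CPM), jg5552 (0.223, 29.1 to 64.5 CPM) and jg16446 (0.231, 65.9 to 144 CPM). Of the abundant members, jg2337 was as steady, with a CV of 0.235 at a mean of 561 CPM.

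Other members were almost silent in some embryos and well read in others of the same stage and sex. At 4 dpf jg16895 had 0.636, 0.666 and 852 CPM in females and 0.536, 456 and 565 CPM in males. The 1–2 dpf embryos had 0 CPM in all 3 females, and 0, 0.234 and 192 CPM in males. The 12 embryos thus split into 8 at or below 0.666 CPM and 4 at 192 CPM or more, and both kinds occurred in both sexes at 4 dpf.

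The same kind of split was seen in jg5796 and jg20180, chosen after their values were seen because they failed the low-count filter of a test. In jg5796, 8 embryos had at most 1.45 CPM and 4 had 42.4 to 158 CPM. In jg20180, 6 embryos had at most 5.81 CPM and 6 had 36.7 to 171 CPM. For jg5796 the 4 high embryos were 1 female (153 CPM) and 2 males (42.4 and 59.9 CPM) of 4 dpf and the male of 1 dpf (158 CPM), so the high embryos were not those of jg16895 throughout.

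Unevenness of a graded kind was seen in jg7246 and jg12485. In jg7246 the 4 dpf embryos had 945, 37.5 and 45.1 CPM in females and 6.97, 936 and 133 CPM in males, against 11.7, 1.09 and 0 CPM in females and 1.34, 11.2 and 145 CPM in males at 1–2 dpf. In jg12485 the 4 dpf embryos had 37.3, 22.6 and 10.3 CPM in females and 13.5, 57.2 and 0.375 CPM in males, against 5.85, 10.7 and 0 CPM in females and 0, 320 and 395 CPM in males at 1–2 dpf. In jg12485 the male embryos of 2 dpf again stood above all others.

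Members named in the study's own text or supplements were jg3149 and jg22016. The first of them, jg3149, encodes CBP (nejire in Drosophila melanogaster), a histone acetyltransferase and transcriptional coactivator. It had 38.1, 37.6 and 14.1 CPM in females and 64.3, 67.3 and 26.2 CPM in males at 4 dpf, against 17.8, 7.83 and 0 CPM in females and 98.0, 26.4 and 13.1 CPM in males at 1–2 dpf. Its level was thus moderate in most embryos, highest in the male of 1 dpf and absent from female replicate 12, the embryo with the fewest genes read. Its mean over the embryos was at least 38.2-fold above the floor of the adult female and at least 21.0-fold above that of the adult male. The study also lists RT-qPCR primers for jg3149 and assayed histone acetylation factors by RT-qPCR in adult females, values that are not used here. It shows CBP levels in these embryos by sex and stage, and reports no female-specific induction of histone acetylation factors during embryogenesis. The absence of reads in 1 library per adult sex does not show that adults lack its RNA.

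The other, jg22016, is annotated in the study's supplement as an uncharacterized protein with a Tudor domain, a fold that in other animals binds methylated residues of proteins. The supplement lists it as a hit of a search for sex-biased intron retention. On manual inspection the study judged the significant hits of that search to be false positives. It had 11.02, 5.16 and 0.642 CPM in females and 28.0, 35.2 and 258 CPM in males at 4 dpf. The 1–2 dpf embryos had 357, 506 and 306 CPM in females and 536, 9.58 and 6.43 CPM in males. As in jg22221, the 2 male embryos of 2 dpf were low and the other 4 embryos of 1–2 dpf high.

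**Figure D4:**
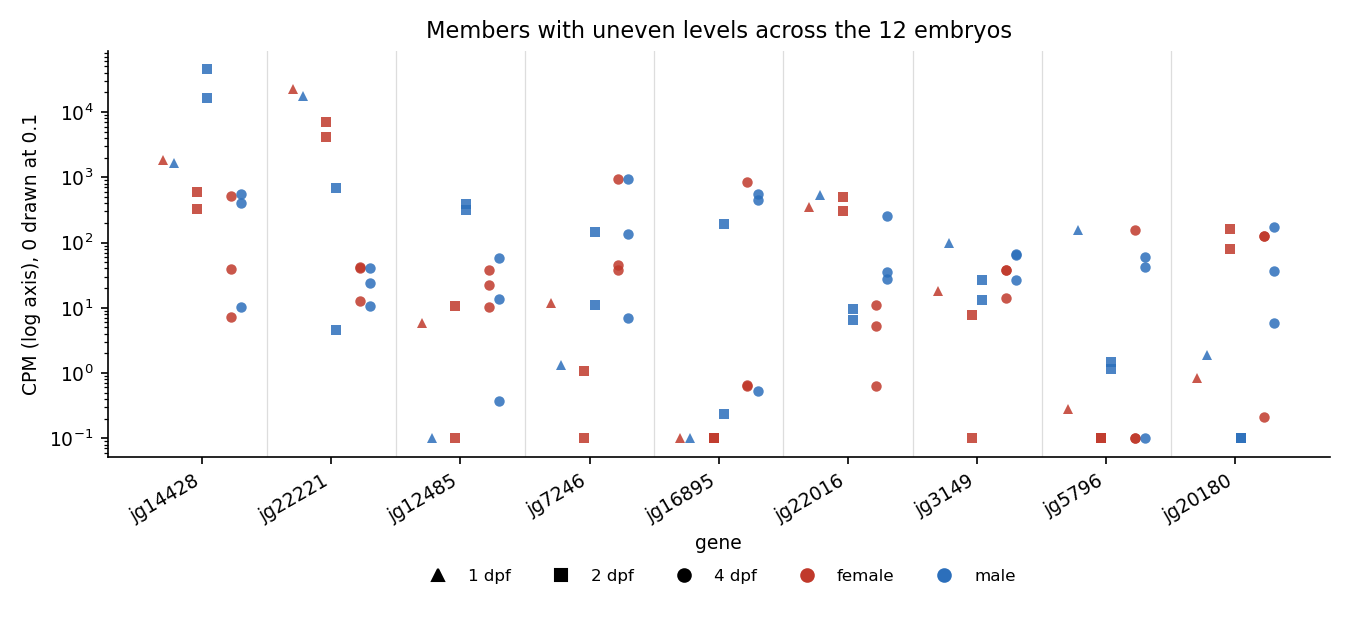
CPM (log axis, 0 drawn at 0.1) in each of the 12 embryos for 9 members with uneven levels or named by the study, by day (triangles 1 dpf, squares 2 dpf, circles 4 dpf) and sex (red females, blue males). For jg16895, 8 embryos lie at or below 0.666 CPM and 4 at 192 CPM or more; the male embryos of 2 dpf are high for jg14428 and jg12485 and low for jg22221 and jg22016.

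The rule used no sex label, but the values of both sexes entered its level and overlap limits. Without the 4 dpf females 24 members (10.2%) no longer met the rule, without the 4 dpf males 34 (14.4%), without the 1–2 dpf females 32 (13.6%) and without the 1–2 dpf males 66 (28.0%). Counts of members called between the sexes are therefore read only against all genes, and a p-value that passed a threshold is given only for a member that met the rule without any of these groups. Over the 12 embryos, with stage as a covariate, edgeR's quasi-likelihood test called none of the 234 members that passed its low-count filter at an adjusted p-value under 0.05, beside 0.0239% of all 8362 genes tested (2 genes). The 2 members left out by the filter were jg16895 and jg5796. At an unadjusted p under 0.05 there were 9 members, 2 higher and 7 lower in females, beside 5.33% of all genes. DESeq2 called 7 genes (0.0837%), none of them a member, and gave 24 members an unadjusted p under 0.05, beside 9.16% of all genes. The median log2 fold change (female over male) was -0.11 for members and -0.096 for all genes tested.

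No member had 6 females wholly above or below 6 males, beside 0.347% of all genes tested. The members with the smallest p-values showed overlapping sexes. For jg15972 females had 7.39 to 154 CPM (median 65.9), against 1.17 to 65.8 CPM (median 24.6) in males (log2 fold change 1.70, SE 0.64, edgeR adjusted p = 0.879). For jg5128 females had 91.1 to 204 CPM (median 138), against 52.5 to 173 CPM (median 96.7) in males (0.53, SE 0.23, edgeR adjusted p = 0.879). Lower values in females were seen for jg10104, with 15.4 to 44.8 CPM (median 27.1) in females and 35.4 to 102 CPM (median 43.5) in males (-0.88, SE 0.30, edgeR adjusted p = 0.879), and for jg17534, with 33.9 to 149 CPM (median 94.3) and 77.8 to 352 CPM (median 153) (-1.11, SE 0.43, edgeR adjusted p = 0.879). None of these differences passed the threshold, and of the 4 genes only jg17534 met the rule without each sex of each stage.

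Within 4 dpf, edgeR called none of the 236 members, beside 0.0% of 8979 genes, and 12 members had an unadjusted p under 0.05, beside 3.53% of all genes. Females lay wholly above or below males in 26 members (11.02%), beside 10.9% of all genes tested. DESeq2 called 1 member, jg22016, beside 0.29% of all genes. For jg22016 all 3 females of 4 dpf (0.642 to 11.02 CPM) were below all 3 males (28.0 to 258 CPM), with a log2 fold change of -4.16 (SE 1.12) in edgeR and of -4.18 (SE 0.91) in DESeq2. Its level at 4 dpf met the rule only through male replicate 8, so the difference is given as a description.

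Within 1–2 dpf, edgeR called none of the 233 members tested, beside 0.0% of 8089 genes, and 16 members had an unadjusted p under 0.05, beside 6.06% of all genes. The sexes did not overlap in 37 members (15.9%), beside 16.5% of all genes tested. DESeq2 called 3 members, beside 0.791% of all genes: jg14428, jg21162 and jg20439, all lower in females. In jg21162 females had 117, 57.0 and 90.6 CPM, against 285, 315 and 225 CPM in males (edgeR log2 fold change -1.58, SE 0.32, adjusted p = 0.740; DESeq2 adjusted p = 0.00974, between 0.00974 and 0.9999 over the alternatives). Of the 3, only jg21162 met the rule without each sex of each stage. In jg20439, given as a description, females had 33.4, 12.2 and 11.8 CPM, against 95.3, 87.9 and 106 CPM in males (edgeR log2 fold change -2.30, SE 0.51). Both members separated the sexes at 1–2 dpf, including the embryos of 1 dpf, but at 4 dpf the sexes overlapped: jg21162 had 95.1, 212 and 258 CPM in females and 132, 248 and 267 CPM in males, and jg20439 had 21.6, 87.2 and 68.2 CPM and 32.8, 49.9 and 87.7 CPM.

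For jg14428 at 1–2 dpf the sexes overlapped, since the male of 1 dpf (1683 CPM) was below the female of 1 dpf (1868 CPM). Its log2 fold change was -4.59 (SE 1.20), and without the 1–2 dpf females its stages did not overlap, so this too is a description. When the embryos of 2 dpf were compared alone, edgeR called jg22016, beside 0.234% of 8123 genes, and it also called it without male replicate 1, beside 0.14% of 8560 genes. Without the 1–2 dpf males the stages of jg22016 did not overlap. The male of 1 dpf, with 536 CPM, was the embryo in which jg22016 did not follow the other males of the stage.

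Whether the sex difference itself differed between the stages was tested by an interaction term. By edgeR, the test called none of 236 members, beside 0.0% of 9833 genes, while 22 members had an unadjusted p under 0.05, beside 5.52% of all genes. DESeq2 called jg16118 and jg16895, beside 0.346% of all genes. In jg16118 females had 13.98, 21.0 and 8.13 CPM and males 29.3, 40.7 and 55.4 CPM at 4 dpf, against 30.6, 25.9 and 75.6 CPM in females and 19.6, 15.2 and 17.0 CPM in males at 1–2 dpf. Females were thus wholly below males at 4 dpf and wholly above them at 1–2 dpf, and the interaction was -2.85 on the log2 scale (SE 0.79). Its level met the rule only with the 4 dpf males and the 1–2 dpf females, the higher sex at each stage, so the pattern is a description. In jg16895, most of whose 1–2 dpf embryos had no read, no fold is given, and it met the rule only through male replicate 3 of 1–2 dpf. Leaving out female replicate 12 made jg12920 the only member called by edgeR, beside 0.00952% of 10499 genes, and leaving out male replicate 1 of 1–2 dpf made jg22016 the only one, beside 0.212% of 10389 genes. Neither met the rule without the 1–2 dpf embryos of one sex.

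The 1–2 dpf group pooled 2 days, and the rule used no day label, though the values of both days entered it. Without the embryos of 2 dpf 62 members (26.3%) no longer met the rule, and without those of 1 dpf 45 (19.1%). In a comparison of 4 embryos of 2 dpf with 2 of 1 dpf, edgeR called none of 234 members, beside 0.0% of 8977 genes, and 10 members had an unadjusted p under 0.05, beside 4.19% of all genes. The days did not overlap in 58 members (24.8%), beside 22.2% of all genes tested. DESeq2 called 2 members, jg5499 and jg1923, beside 0.579% of all genes, both higher at 2 dpf.

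For jg5499 the embryos of 2 dpf had 6405, 7690, 7069 and 5769 CPM, against 3500 and 2280 CPM at 1 dpf (edgeR log2 fold change 1.48, SE 0.37). For jg1923 they had 6273, 4103, 4972 and 5415 CPM at 2 dpf, against 1584 and 1363 CPM at 1 dpf (2.11, SE 0.41). Both genes were higher in 4 of 4 embryos of 2 dpf, but jg5499 did not meet the rule without the embryos of 1 dpf, nor jg1923 without those of 2 dpf, and the differences are given as descriptions.

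Between 4 dpf and 1–2 dpf the members were chosen to overlap, so their few calls are given as a description. By edgeR, the test called 9 of 234 members (4 higher and 5 lower at 4 dpf), beside 8.0% of 8362 genes, and from a contrast that the rule used nothing is read. Among the 234 members, 202 (86.3%) had a log2 fold change within 1 of 0, 12 were above 1 and 20 below -1. The called members were jg22221 (-8.27), jg14428 (-5.60), jg12618 (-1.91), jg12911 (-1.76) and jg12246 (-0.79) below 0, and jg3685 (1.48), jg21211 (1.47), jg2481 (1.39) and jg13807 (0.98) above it.

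The counts give no coordinates, so closeness was read from the gene numbers alone, and some members had neighbouring numbers. In steps of at most 5 numbers, 47 members (19.9%) fell into 23 runs, while 456 of 3050 comparison genes (15.0%) had a member within 5 numbers. The longest run held 3 members, jg10738, jg10739 and jg10744. At 4 dpf jg10738 had 2.62 to 42.8 CPM, against 35.9 to 87.6 CPM at 1–2 dpf, jg10739 had 19.8 to 55.9 CPM, against 27.0 to 88.6 CPM, and jg10744 had 18.8 to 61.8 CPM, against 22.2 to 92.0 CPM. All 3 were of moderate level at both stages.

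Likeness over the 12 embryos is given as a description, with no test. Over all 27730 pairs of members the median Spearman correlation of log2 CPM was 0.049, and over the 24 pairs of neighbours in runs it was 0.283, with 7 of the 24 below 0. The most alike neighbours were jg8461 and jg8462 (0.902), with 20.1 to 63.8 CPM and 19.8 to 81.6 CPM over the embryos. Of all pairs, jg2507 and jg11920 were most alike (0.944): both were highest in the 2 embryos of 1 dpf (35.1 and 48.3 CPM in jg2507, 57.1 and 38.4 CPM in jg11920), and both had no read in female replicate 12. Every such value rests on the same 12 libraries, whose depth and gaps all genes share.

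Of the 10 most abundant members, 4 (jg5499, jg22221, jg6026 and jg12911) had a gene within 3 numbers that averaged at least 100 CPM over the embryos with at most 1 adult read, and 6 had none. The same count was not made around comparison genes. The blocks below were chosen after their values were seen. Around jg5499, 5 genes in a row, jg5498 to jg5502, had at most 1 read over both adults. At 4 dpf and 1–2 dpf their means were 5654 and 3497 CPM in jg5498, 2908 and 5452 CPM in jg5499, 774 and 2007 CPM in jg5500, 429 and 224 CPM in jg5501, and 37.7 and 53.7 CPM in jg5502. The gene just before them, jg5497, was as abundant in embryos (5623 and 6092 CPM) but had 610 reads in the adult female and 238 in the male. Adult reads thus ended between jg5497 and jg5498, which had similar embryo levels. In this block jg5499 and jg5501 are members, and jg5498, jg5500 and jg5502 missed the rule by 1 adult read each.

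A block of another kind lay at jg22221 to jg22224. All 4 genes had 0 reads in both adults, with means at 4 dpf and 1–2 dpf of 28.5 and 8746 CPM in jg22221, 5.49 and 1562 CPM in jg22222, 4.85 and 422 CPM in jg22223, and 10.4 and 11487 CPM in jg22224. Over the embryos of both stages together, their Spearman correlations lay between 0.704 and 0.909 (n = 12), values that include the drop between the stages. Within 4 dpf, jg22223 was at 0 CPM in female replicates 7 and 10, where jg22221 was highest (41.7 and 41.1 CPM). It was highest (13.5 CPM) in female replicate 11, where jg22221 had 12.6 CPM. In all 4 genes the males of 2 dpf had the lowest values of the 1–2 dpf embryos: 781 and 33.8 CPM in jg22224, against 14836 to 20562 CPM in the other 4. Only jg22221 is a member, since the other 3 averaged under 20 CPM at 4 dpf. Like jg22016, jg22222 is listed by the study among the intron retention hits that it judged false positives.

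Near jg6026, jg6029 averaged 11763 CPM at 4 dpf and 2245 CPM at 1–2 dpf with no adult read, and near jg12911, jg12912 averaged 984 and 40.7 CPM with 1 adult read. Of the 54 genes within 3 numbers of the 10 most abundant members, 5 averaged at least 1000 CPM over the embryos, and 4 of these had at most 1 adult read. Among all genes at that level, 32 of 171 had at most 1 adult read, 29 had none and 6 were members. Whether neighbouring genes are near-identical copies that share reads was not tested.

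**Figure D5:**
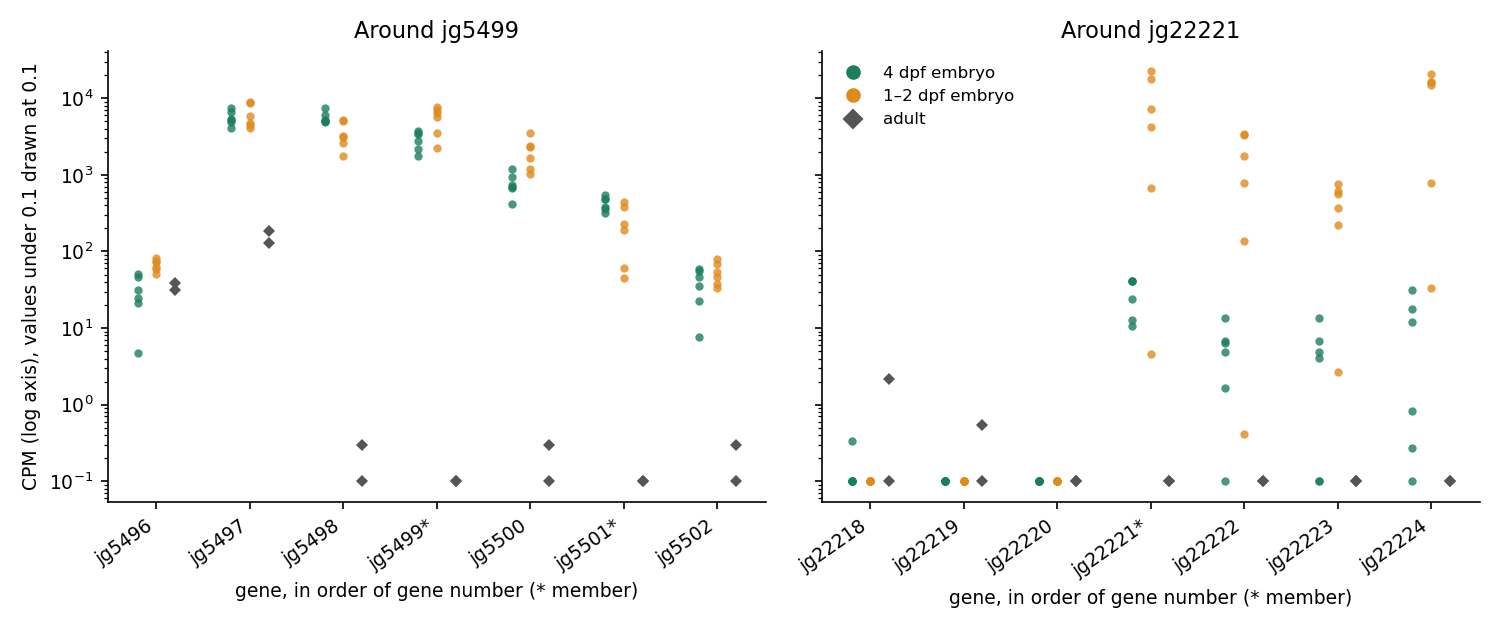
CPM (log axis, values under 0.1 drawn at 0.1) of genes with neighbouring numbers around jg5499 and jg22221 in each 4 dpf embryo (green), 1–2 dpf embryo (orange) and adult (grey diamonds); members carry an asterisk. Adult values drop from jg5497 to jg5498 while embryo values stay above 1000 CPM, and jg22221 to jg22224 have no adult reads.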

How the data were processed

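RNA from single embryos and dissected adults was made into libraries with the SMART-Seq mRNA LP kit (with UMI). The deposited table holds counts of reads per gene, made by the authors with Cogent NGS software 2.0.1; it counts all reads, not molecules, and holds 14 libraries. CPM were computed here from the counts and column totals. Members and lists were chosen with earlier results of these data known.

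Counts were tested with edgeR 4.0.16 (quasi-likelihood F test, TMM, filterByExpr, R 4.3.3), fitted over all genes and adjusted by Benjamini-Hochberg over all of them, with a threshold of 0.05. Each p measures the spread between single embryos. DESeq2 1.42.0, RLE factors, no filter and leaving out each embryo were alternatives. Fits were tested on simulated data. Members passed the filters of the tests in numbers of 233 to 236. No pair of libraries agreed within sampling noise.

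Genes were named by rule: the 10 highest means, the 5 lowest and the 5 most uneven spreads, the 2 smallest p-values per direction over sex, the nearest genes at the level and adult limits, the longest run, the most alike pair and genes named by the study; others are said to be chosen after their values were seen, as were the members called only by DESeq2 or only without an embryo. The floor was 3 reads, and Spearman values used a prior count of 2.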

Additional observations from a re-analysis of the deposited data

Results flagged for a closer look

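In groups of 6 embryos, the highest or lowest value was set apart when its gap to the nearest other exceeded the critical share of the range (Dixon's test). Of 76 such groups, 12 were set apart; chance gives about 1 in 20, but the genes were named in part for uneven values or for calls, so the 2 shares are not comparable.

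At 1–2 dpf, male replicate 2 of 2 dpf was set apart for jg14428 (45440 CPM, next 16576 CPM). Male replicate 3 of 2 dpf was set apart for jg12911 (3374 CPM, next 1383 CPM), jg16895 (192 CPM, next 0.234 CPM), jg7246 (145 CPM, next 11.7 CPM) and jg17534 (352 CPM, next 113 CPM). The male of 1 dpf was set apart for jg3149, the CBP gene (98.0 CPM, next 26.4 CPM), and for jg10104 (102 CPM, next 57.3 CPM). Female replicate 12 was set apart for jg10744 (92.0 CPM, next 45.9 CPM), for jg16118 (75.6 CPM, next 30.6 CPM) and for the number of members without a read (30, next 2). Its total count was within the range of the other embryos, and its low number of genes moved with these values; the part of that in them was not tested.

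At 4 dpf, male replicate 8 was set apart for jg22016 (258 CPM, next 35.2 CPM) and male replicate 2 for jg17534 (343 CPM, next 179.8 CPM).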

How the results depend on the processing

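The number of members was 492 with a minimum of 10 CPM and 86 with 40 CPM, and 219 to 243 when an embryo was left out; allowing up to 3 reads in each adult gave 291, dropping the overlap 278, medians 212 and TMM scaling 231. Members in runs numbered 14 with steps of 1 and 79 with steps of at most 10. Members with reads in every embryo numbered 201 to 228, and those with a CV of at least 1 numbered 14 to 15, when an embryo was left out (the CV alternative was chosen after seeing the data).

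DESeq2 called more genes than edgeR in every test: 7 for sex over all embryos, 64 for sex at 1–2 dpf (3 members), 26 for sex at 4 dpf (1 member), 34 for the interaction (2 members), 52 for 2 dpf over 1 dpf (2 members) and 1140 for 4 dpf over 1–2 dpf (19 members). Without a stage covariate edgeR called 0 genes for sex over all embryos. Without a filter it called 12 for sex at 1–2 dpf, 4 at 4 dpf, 6 for the interaction and 4 for 2 dpf over 1 dpf; with RLE factors, 2 for the interaction and 1 for 2 dpf over 1 dpf; and with 2 dpf embryos only, 19 for sex (1 member). The cause of these differences was not tested.

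Leaving out each embryo gave 0 to 4 genes called for sex over all embryos, 0 to 12 at 1–2 dpf (0 to 1 member), 0 to 3 at 4 dpf, 0 to 22 for the interaction (0 to 1 member), 0 to 1 for 2 dpf over 1 dpf and 489 to 759 for 4 dpf over 1–2 dpf (5 to 11 members). No direction was reversed among the fold changes named, those of the 9 members called between the stages included. No paired analysis was possible, because the mothers of the embryos are not given and replicate numbers only label single embryos. Depth and any loss of molecules before sequencing, which was not measured, limit the adult zeros. The adult male had the fewest reads, and each adult sex had 1 library, without germline.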
